A study of Rattus norvegicus with 12 samples.

Results

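The second growth hormone (GH) injection was set against the first in the livers of hypophysectomised male rats. Hypophysectomy removes the pituitary, the source of GH. The members of the comparison were 4 of the 12 arrays of the study, chosen by their titles: 2 arrays of males given 2 GH injections over untreated hypophysectomised males, and 2 arrays of males given a single injection over the same kind of control. The quantity described is an indirect difference, the mean log2 ratio after 2 injections minus the mean log2 ratio after 1, with every ratio taken as GH-treated over hypophysectomised. A difference of 1 is 2-fold.

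All rats were Fischer 344, 12 weeks old. The rats of all 3 groups used here, the controls included, were hypophysectomised males. The 1-injection RNA pooled 4 livers from rats killed 30, 60 or 90 min later, so it mixes 3 times. The 2-injection RNA was 1 pool of 5 livers, with injections 3 or 4 h apart. The time from the second injection to death and the dose are not given in the sources used here. A response to the second pulse and a late response to the first therefore cannot be told apart. The same GH pool lay on both arrays of its comparison, in Alexa 555 on the first array and in Alexa 647 on the second. The p-values do not cover the spread between GH pools. Which hypophysectomised male pool served as control on each array is not in the labels. A difference between control pools could therefore also enter the differences described here. On the first array of the single injection the label of the treated channel leaves out the hormone, and its group was taken from the title. The arrays of untreated male, untreated female and hypophysectomised female livers in the remaining comparisons served to estimate the error and the sex difference (pools of 3 to 4 livers).

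GH binds its receptor, activates the kinase Jak2 and through it the transcription factor Stat5b, which enters the nucleus and switches target genes on within minutes. Male rats secrete GH in pulses separated by hours without hormone, and females secrete it almost continuously. The pause between pulses lets liver cells reset their signalling, and the pulsed pattern maintains male-specific liver genes while the continuous one maintains female-specific genes.

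Between 63.8% and 71.7% of probes were well above background per dye on the 4 GH arrays, and precision is limited by how few arrays there are. The 4 arrays lay on 1 slide of 3, so the slide does not separate the GH groups from each other. Of 28589 probes tested, 2574 differed between 2 injections and 1 (limma over all 12 arrays, Benjamini-Hochberg adjusted p below 0.05, here termed called), 1387 higher and 1187 lower. With each gene read by its brightest probe, 788 of 12066 genes were higher after 2 injections than after 1 (6.53%) and 603 were lower (5%). At least 2-fold differences were found for 117 of the higher and 40 of the lower genes. The median difference of all genes was -0.01. All 1391 called genes had 1 sign in both dye-matched differences, that is, in the first arrays set against each other and in the second.

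The count depended on which arrays set the error. Fitting the 4 GH arrays alone called 10725 probes and 19.2% of genes as higher and 22.5% as lower. That fit has 1 residual degree of freedom and gives the same differences by construction, so only the error changes. Its spread was pooled over all probes into a single SD of 0.0747 (infinite prior degrees of freedom). Calls of the 4-array fit, here and below, are thus in effect a cut on the size of the difference. In the fit of all 12 arrays, leaving out the first or second array of the single injection left 461 or 642 probes, and leaving out the first or second array of 2 injections left 531 or 955. Centring each array on its median in place of loess left 0 called probes, with 477 probes at an unadjusted p below 0.05 by limma. The median difference of all genes was then -0.15, and list medians given with median centring include that shift. Without loess the ratios of the brightest 20% of probes had medians of -0.67 and 0.52 on the arrays of 1 injection and -0.06 and -0.88 on those of 2, against 0.02, -0.02, 0.01 and -0.08 with it. Every call below therefore rests on the loess step. All 103 called genes of the naming rule kept the direction of their difference with median centring and with each array left out. With median centring these differences ran from 0.02 to 2.24 times the main value. The 103 genes had been chosen by their calls on these same arrays. Without the dye term 34 of the 103 genes lost their call, and with the replicate number as a block 12 did.

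Set against the hypophysectomised males, 984 genes were higher (8.16%) and 785 lower (6.51%) after 1 injection. After 2 injections 2180 were higher (18.1%) and 2229 lower (18.5%). Both comparisons were made over hypophysectomised male RNA and may share its pool, so the following counts are a description. Among the 1391 genes whose difference was called, 546 were called higher only after 2 injections (late rise) and 347 were called lower only then (late fall). A further 301 were called in 1 direction after both and more strongly after 2, 191 of them with a higher and 110 with a lower level than after 1. Induction seen after 1 injection was not called after 2 for 101 genes (loss of induction), and repression was not called after 2 for 26 (loss of repression). In 31 genes the direction reversed, from lower to higher in 15 and from higher to lower in 16. For 19 genes the response kept its direction but was weaker, and 20 genes were called in neither comparison with the controls.

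**Figure D1:**
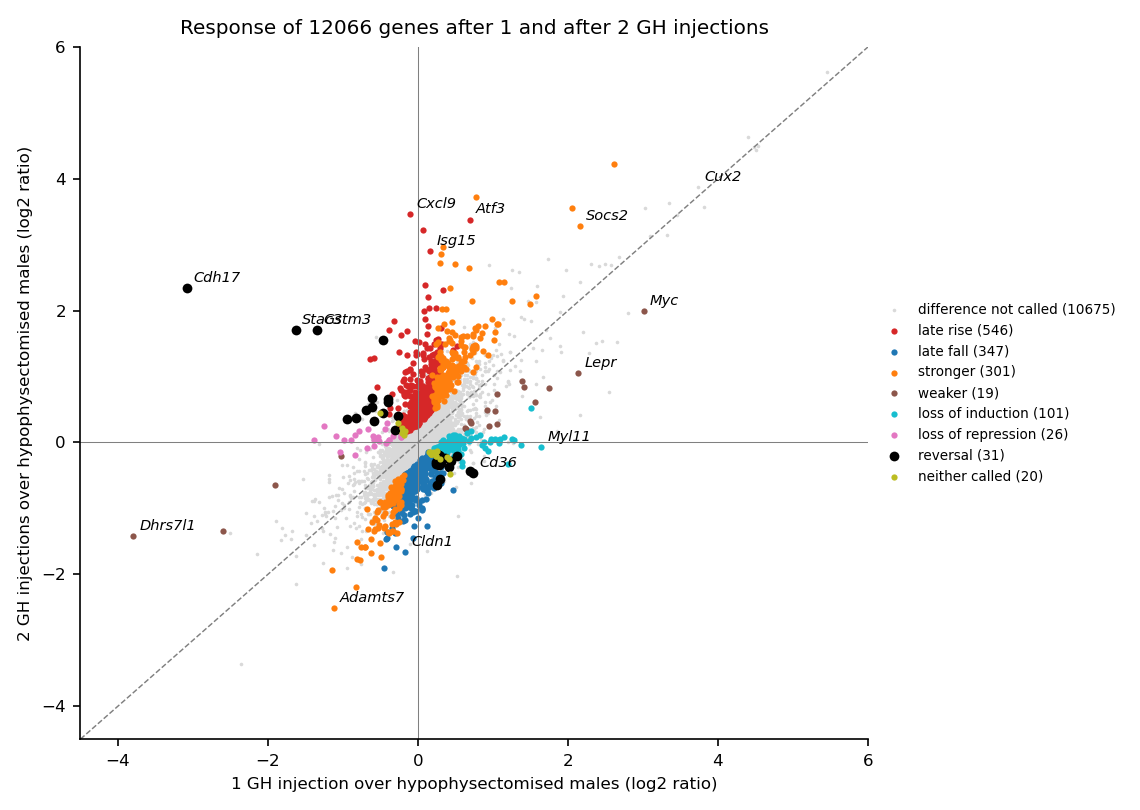
Log2 ratio over hypophysectomised males after 2 GH injections (y axis) against 1 injection (x axis), 1 point per gene for 12066 genes, each the fitted value of 2 arrays. Colours mark the 8 patterns of the 1391 called genes, grey points were not called, and the dashed line marks equal response. Cdh17 lies at upper left and Myl11 on the right near the horizontal axis.

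The largest differences included genes of male liver that were below the controls after 1 injection. Cdh17, which encodes liver-intestine cadherin, an adhesion protein, had log2 ratios of -3.09 and -3.06 on the 2 arrays of 1 injection and 2.38 and 2.30 on those of 2. The groups did not overlap, and the difference was 5.41 ± 0.20 (SE, n = 2 arrays each, adjusted p = 2.51e-05), or 42.6-fold. A second Cdh17 probe gave 3.31. In intact rats Cdh17 was higher in males than in females by 6.98, and the log2 ratio of hypophysectomised over intact males was -4.05.

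Stac3, an adaptor protein known from the calcium channels of muscle, had -1.68 and -1.58 after 1 injection and 1.74 and 1.69 after 2, a difference of 3.34 ± 0.22 (adjusted p = 0.000185). Gstm3, a glutathione S-transferase, had -1.44 and -1.23 against 1.66 and 1.73, a difference of 3.03 ± 0.21 (adjusted p = 0.000252). Hao2, a peroxisomal hydroxy acid oxidase, had -0.94 and -0.97 against 0.37 and 0.33, with a difference of 1.30 ± 0.13 (adjusted p = 0.00132). All 3 were below the controls on both arrays of 1 injection and above them on both arrays of 2, and all 3 were higher in intact males than in females, by 3.64, 2.25 and 4.16. Gstm3 belongs to a family of close relatives that 1 probe may read together.

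In other male-biased genes the repression was reduced but did not turn. Dhrs7l1, a short-chain dehydrogenase, had -3.81 and -3.78 after 1 injection and -1.21 and -1.63 after 2 (difference 2.38 ± 0.42, adjusted p = 0.0129), although this call was lost without either array of 1 injection or the first array of 2. Rdh16, a retinol dehydrogenase, had -2.60 and -2.61 against -1.32 and -1.39 (difference 1.25 ± 0.15, adjusted p = 0.00293). Both stayed below the hypophysectomised level on every array. Of 22 genes listed as male-biased and tested, Cdh17, Stac3, Hao2, Dhrs7l1 and Rdh16 were higher after 2 injections and 0 were lower. The list median was 0.14, against -0.01 for all genes, and -0.23 with median centring, against -0.15 for all genes. Cyp2c11, the main male-specific P450, had -1.91 and -2.36 against -1.39 and -1.99 and was not called (0.45 ± 0.81, adjusted p = 0.825).

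Neurl3, a ubiquitin ligase, and Tgif1, a repressor of TGF-beta signalling, went from below to above the controls without a called sex difference. Neurl3 had -0.53 and -0.41 against 1.54 and 1.58, a difference of 2.03 ± 0.09 (adjusted p = 3.7e-05). Tgif1 had -0.74 and -0.47 against 0.62 and 0.71 (1.27 ± 0.23, adjusted p = 0.0145), a call lost with any 1 of the 4 arrays left out.

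Reversals from higher to lower were smaller, and the 6 largest were all called lower in intact males than in females. Cd36, the fatty acid translocase, had 0.82 and 0.64 after 1 injection and -0.19 and -0.74 after 2, a difference of -1.20 ± 0.17 (adjusted p = 0.00596). Serpina6, the plasma carrier of corticosteroids, had 0.83 and 0.58 against -0.22 and -0.64 (-1.14 ± 0.15, adjusted p = 0.00421). Their sex differences, males minus females, were -2.81 and -0.82. The call of Cd36 was lost without the second array of either group, and that of Serpina6 without the first array of 1 injection. Tmco3, a membrane protein, Ctla2a, a cysteine protease inhibitor, Ttll9, a tubulin-modifying ligase, and Ifgga2l1 had differences of -0.88, -0.85, -0.77 and -0.72. In each of these genes both arrays of 1 injection lay above 0 and both arrays of 2 below it. The call of Ttll9 was lost with any 1 array left out, and that of Ifgga2l1 without the first array of 1 injection.

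**Figure D2:**
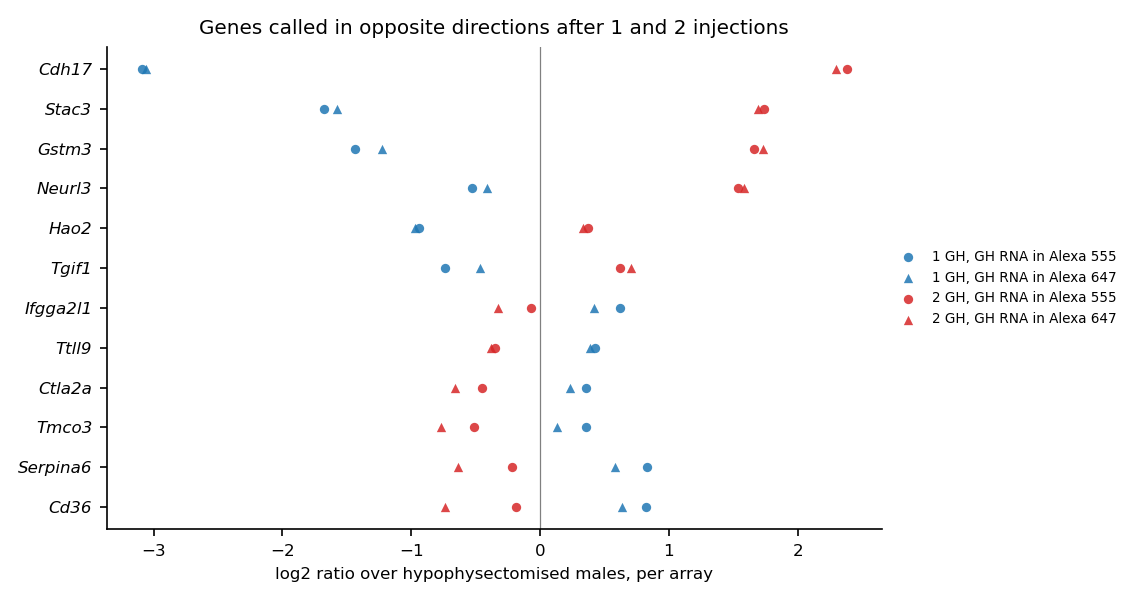
Log2 ratio over hypophysectomised males on each of the 4 arrays (x axis) for the 6 largest reversals in each direction (rows). Blue marks 1 injection and red 2, and circles and triangles mark GH RNA in Alexa 555 and Alexa 647. Blue and red lie on opposite sides of 0 in all 12 genes.

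Across all called genes, sex bias was counted as a description, since intact animals share no RNA with the 4 arrays but share the fit. Of all genes tested, 7.66% were higher in intact males and 7.35% lower. Of the 788 genes higher after 2 injections, 12.6% were male-higher (99 genes, or 10.7% of all male-higher genes) and 9.26% male-lower (73, or 8.23% of all male-lower genes). Of the 603 genes lower after 2 injections, 12.6% were male-higher (76, or 8.23% of all male-higher genes) and 23.2% male-lower (140, or 15.8% of all male-lower genes). In the list of 21 female-biased genes, Abcb1b, a drug efflux pump, and Ifi47, an interferon-inducible GTPase, were higher. Cd36 and Gas6, a ligand of TAM receptor kinases, were lower. Over all genes 6.53% were higher and 5% lower. The difference of Gas6 was -0.44 (adjusted p = 0.0305), was not called with processed signals (-0.45, adjusted p = 0.0832) or with the replicate block, and was -0.08 with another probe (adjusted p = 0.861). The median of that list was 0.03 and turned to -0.30 with a smaller background offset of 16, to -0.31 with the scanner's processed signals and to -0.34 with median centring.

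By count, the group with the most called members was the interferon responsive genes and chemokines. By share of tested members the ribosome biogenesis list, with 19 of 27 higher, stood above it. Over all genes 6.53% were higher and 5% lower, the shares to set beside the counts of each list. Of 30 tested, 20 were higher after 2 injections than after 1 and 0 were lower by limma (23 and 2 at an unadjusted p below 0.05, 25 and 3 in the fit of the 4 arrays), with a median difference of 1.00 (0.74 with median centring). After 1 injection the list median over controls was 0.25, and after 2 it was 1.54. With 1 of the 4 arrays left out the count of higher genes was 16 to 19. The list was chosen with earlier results of these data known.

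Cxcl9 and Cxcl10, chemokines that attract activated T cells through the receptor Cxcr3, showed the widest gap. Cxcl9 had -0.18 and -0.04 after 1 injection and 3.47 and 3.48 after 2, and the difference was 3.58 ± 0.20 (12.0-fold, adjusted p = 8.3e-05). Cxcl10 had 0.02 and 0.11 against 3.25 and 3.21, a difference of 3.17 ± 0.15 (adjusted p = 5.51e-05). Neither gene was called after 1 injection, and the groups were far apart. Cxcl11, another ligand of that receptor, had 0.38 and 0.26 against 2.16 and 1.87.

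Antiviral effectors moved by similar amounts. Isg15, a ubiquitin-like modifier, had -0.01 and 0.33 after 1 injection and 2.78 and 3.03 after 2 (2.74 ± 0.10, adjusted p = 2.51e-05). Rsad2, the antiviral enzyme viperin, had 0.35 and 0.32 against 3.01 and 2.92 (2.63 ± 0.08, adjusted p = 2.08e-05), and a second probe gave 1.03. The guanylate-binding proteins Gbp2 and Gbp5, GTPases that act on pathogen vacuoles, followed. Gbp2 had 0.40 and 0.23 against 2.95 and 2.78. Gbp5, which is not on the list, had 0.59 and 0.95 against 3.62 and 3.84, a difference of 2.96 ± 0.20 (adjusted p = 0.000252). Mx2, Usp18, which removes Isg15 from proteins, and Ifit3 were higher by 2.09, 1.89 and 1.80. In each of these genes the lowest array of 2 injections lay above the highest array of 1.

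The interferon regulatory factors were divided. Irf7, which amplifies type I interferon production, had -0.04 and 0.29 after 1 injection and 1.55 and 1.75 after 2 (1.53 ± 0.10). Irf1, an early interferon-induced factor, had 0.37 and 0.54 against 0.28 and 0.23 and was not called (-0.20 ± 0.13, adjusted p = 0.449). Mx1 had 0.55 and 0.40 against 0.19 and 0.13, which also missed the threshold (-0.32 ± 0.10, adjusted p = 0.0877).

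Some members had already moved after 1 injection. Ifi47 had 2.53 and 2.70 after 1 injection and 4.19 and 4.25 after 2, a difference of 1.61 ± 0.09 (adjusted p = 9.4e-05). Igtp, another GTPase of the same family, had 1.71 and 1.45 against 2.40 and 2.04 (0.64 ± 0.07). These GTPases of the immunity-related family can share sequence, and a probe may read more than 1 of them. Cxcl1, a neutrophil chemokine, had 1.59 and 2.74 against 1.92 and 2.94, with overlapping groups and no call (0.27 ± 0.50, adjusted p = 0.83). Ccl2, which attracts monocytes, had 0.33 and 0.27 against 2.89 and 2.57 (2.43 ± 0.10, adjusted p = 3.17e-05). Cxcl2, Ccl3 and Ccl4, chemokines made by activated leukocytes among others, were higher by 1.04, 0.99 and 0.91.

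Markers of blood and immune cells stood beside these values, and are to be read beside the shares of all genes, 6.53% higher and 5% lower. In bulk liver, more cells of a type and more RNA per cell cannot be told apart. Of 13 lymphocyte markers tested, 0 were higher and 0 lower by limma (1 lower at an unadjusted p below 0.05, 2 lower in the fit of the 4 arrays), and their ratios ran from -0.04 to 0.55 after 1 injection and from -0.13 to 0.41 after 2. Of 11 macrophage markers, 0 were higher and 3 lower (Csf1r, Vsig4 and Clec4f, by -0.35, -0.36 and -0.43), with ratios from -0.39 to 0.46 after 1 and from -0.16 to 0.10 after 2. All 3 of these calls were lost with any 1 array left out, and a second probe of Csf1r gave -0.09 (adjusted p = 0.515). Of 8 neutrophil markers, 1 was higher (Mmp8, neutrophil collagenase, by 0.42, also lost with any 1 array left out), with ratios from -0.08 to 0.89 and from -0.09 to 1.41. Their part in the interferon result was not tested.

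**Figure D3:**
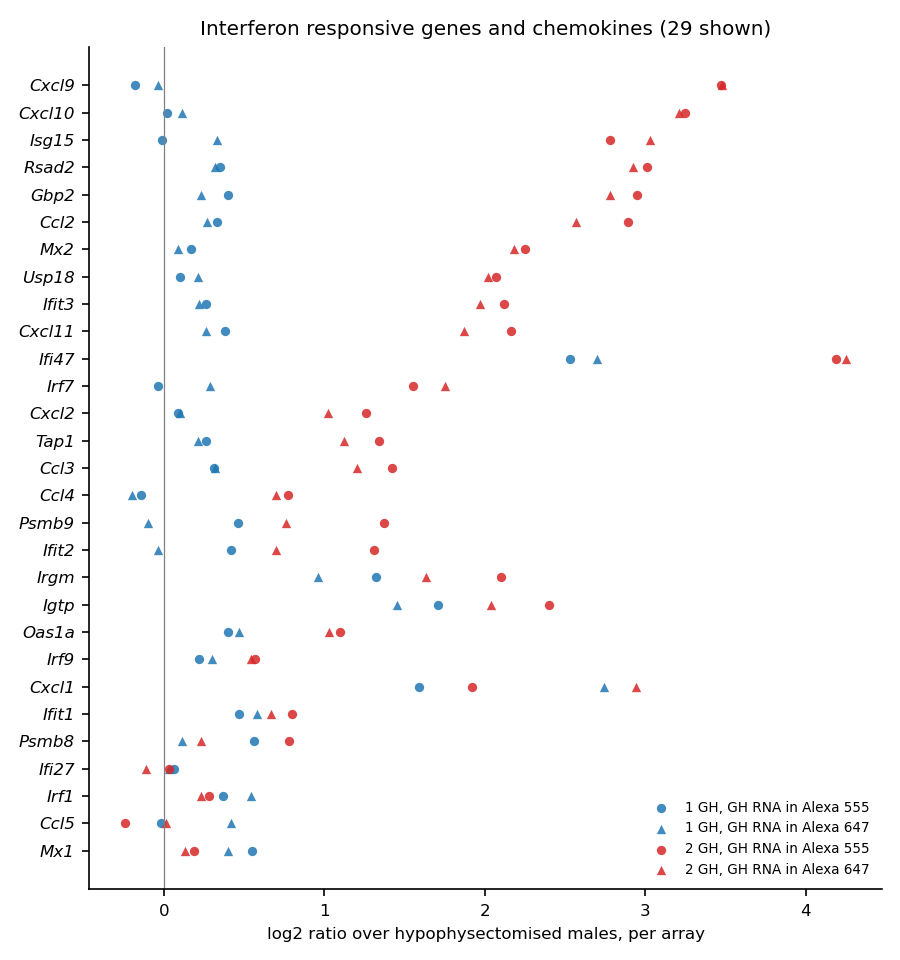
Log2 ratio over hypophysectomised males on each of the 4 arrays (x axis) for the interferon responsive genes and chemokines reported here (rows, ordered by difference). Blue marks 1 injection and red 2, with circles for GH RNA in Alexa 555 and triangles for Alexa 647. From Cxcl9 down to Cxcl11 the red symbols lie between 1.87 and 3.48 and the blue between -0.18 and 0.40, whereas for Mx1 the red lie below the blue.

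Promoter sequences are given for 5 genes because the interferon group moved together and because Cish and Ifi47 already responded to the first pulse. Each is the 250 bases before the gene start from RefSeq (GRCr8), plus strand, 5′ to 3′. In Cxcl10 (chr14:15988816-15989065), Gbp2 (chr2:234005477-234005726) and Gbp5 (chr2:233910749-233910998), capitals mark the core of the interferon-stimulated response element, GAAANNGAA on either strand. In Ifi47 (chr10:33798494-33798743) and Cish (chr8:116850719-116850968), capitals mark TTCNNNGAA, the gamma-activated site that STAT dimers bind, which reads alike on both strands.
Cxcl10: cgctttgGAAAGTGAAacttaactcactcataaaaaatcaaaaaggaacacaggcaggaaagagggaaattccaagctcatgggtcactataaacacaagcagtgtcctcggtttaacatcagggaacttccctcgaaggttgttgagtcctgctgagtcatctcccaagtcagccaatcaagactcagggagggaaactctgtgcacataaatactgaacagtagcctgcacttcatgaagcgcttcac
Gbp2: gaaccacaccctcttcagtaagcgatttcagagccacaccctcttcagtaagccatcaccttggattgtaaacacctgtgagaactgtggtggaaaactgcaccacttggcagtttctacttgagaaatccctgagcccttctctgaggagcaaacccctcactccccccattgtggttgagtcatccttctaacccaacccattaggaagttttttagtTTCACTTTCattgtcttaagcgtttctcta
Gbp5: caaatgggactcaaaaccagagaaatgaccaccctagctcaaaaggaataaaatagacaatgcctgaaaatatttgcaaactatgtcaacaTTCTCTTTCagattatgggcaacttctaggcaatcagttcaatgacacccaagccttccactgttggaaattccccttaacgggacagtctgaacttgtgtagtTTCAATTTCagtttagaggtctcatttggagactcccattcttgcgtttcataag
Ifi47: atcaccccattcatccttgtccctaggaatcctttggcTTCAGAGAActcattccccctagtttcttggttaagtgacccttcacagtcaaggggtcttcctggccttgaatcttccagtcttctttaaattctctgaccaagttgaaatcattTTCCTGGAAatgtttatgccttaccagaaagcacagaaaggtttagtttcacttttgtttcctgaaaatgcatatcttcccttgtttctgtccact
Cish: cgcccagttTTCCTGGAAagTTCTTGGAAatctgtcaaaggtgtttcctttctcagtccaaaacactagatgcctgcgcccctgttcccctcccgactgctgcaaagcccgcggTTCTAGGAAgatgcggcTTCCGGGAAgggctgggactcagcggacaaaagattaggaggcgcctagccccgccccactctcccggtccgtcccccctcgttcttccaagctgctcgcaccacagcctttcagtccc

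The Cxcl10 window holds 1 match to the interferon element, Gbp2 holds 1 and Gbp5 holds 2, those of Gbp2 and Gbp5 on the opposite strand. The Ifi47 window holds 2 STAT matches and that of Cish 4. Of the 20 called interferon genes 12 matched a promoter by symbol, and 8 of these 12 (66.7%) held GAAANNGAA. The share was 7.99% of 24206 promoters in the table, 10.9% of the 625 promoters matched to higher genes and 6.5% of the 477 matched to lower genes. The interferon element and the kappaB motif were chosen after the data were seen. TTCNNNGAA was held by 4 of the 12 (33.3%), by 7.68% of the promoters of higher genes, by 5.24% of those of lower genes and by 7.44% of all. A kappaB site on either strand was held by 5 of the 12 (41.7%). It was held by 6.4% of all promoters, 7.95% of those of genes tested and 9.44% of those of higher genes. These matches are descriptions of letters and not sites of binding.

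Among core genes of the GH pathway, some were called between the pulses and others were not. Cish, a feedback inhibitor of the GH receptor and a direct Stat5 target, had 1.00 and 1.02 after 1 injection and 0.99 and 0.80 after 2, and its difference of -0.12 ± 0.12 was not called (adjusted p = 0.648). Cish was above the controls on all 4 arrays. Its difference was 0.20 with the scanner's processed signals, so the sign depends on the processing. Socs2, a feedback inhibitor of the same family, had 2.01 and 2.32 against 3.27 and 3.29, with no overlap (1.12 ± 0.19, adjusted p = 0.0103), a call lost without either array of 1 injection or the first array of 2.

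Socs3 had 0.27 and 0.46 against 0.35 and 0.36, and Socs1 had 0.15 and 0.10 against 0.08 and 0.08, with differences of -0.01 and -0.04 that were not called (adjusted p = 0.965 and 0.861). Both turned positive, to 0.17 and 0.11, with processed signals. Socs1 lay near background, with 1 of the 2 arrays of 1 injection well above it. Of 16 SOCS proteins and inhibitors of MAP kinase signalling tested, Socs2 alone was called, with a list median of 0.07. That is near the share of all genes called higher, 6.53%. Dusp6, a phosphatase that inactivates Erk, had 2.06 and 1.20 against 0.84 and -0.06 and was not called (-1.24 ± 0.70, adjusted p = 0.356).

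Of 25 JAK-STAT components, 4 were higher (among them Ptpn2, Jak2 and Stat3) and 2 lower (Lepr and Il6r). The list median was 0.02 (-0.17 with median centring). Over all genes tested the shares were 6.53% higher and 5% lower. Jak2, the kinase bound to the GH receptor, had -0.21 and 0.17 after 1 injection and 0.63 and 0.85 after 2 (0.76 ± 0.14, adjusted p = 0.0155). Ptpn2, a phosphatase that removes phosphate from JAK and STAT proteins, had 0.39 and 0.44 against 1.61 and 1.56 (1.17 ± 0.14, adjusted p = 0.00264). In both genes every array of 2 injections lay above every array of 1. Lepr, the leptin receptor, had 2.15 and 2.13 against 1.14 and 0.95, so its induction was lower after 2 (-1.09 ± 0.23, adjusted p = 0.024). The call of Lepr was lost with any 1 of the 4 arrays left out and with processed signals, and that of Jak2 was kept only without the second array of 1 injection.

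Neither the receptor nor the Stat5 genes were called. Ghr, the GH receptor, had -0.22 and -0.64 against -0.14 and -0.58 (0.07 ± 0.27, adjusted p = 0.923). Its other probes gave -0.35 and -0.36, also not called. Stat5b had 0.39 and 0.15 against 0.46 and 0.15 (0.03 ± 0.11, adjusted p = 0.92) and Stat5a 0.14 and -0.26 against -0.18 and -0.59 (-0.32 ± 0.20, adjusted p = 0.419). In all 3 genes the groups overlapped.

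Most genes linked to Stat5 had responded after 1 injection. Of 26 tested, 15 were above the controls after 1 injection and 21 after 2, and the difference was called for 3, Socs2, Egfr and Serpina3n, all higher. The list median was 0.29, and -0.04 with median centring, where that of all genes was -0.15. Relative to the median of all genes it was 0.31, and 0.11 with median centring. Egfr, the receptor of epidermal growth factor, had 0.46 and 0.44 after 1 injection and 1.59 and 1.42 after 2 (1.05 ± 0.10, adjusted p = 0.000887), and kept its call with each array left out.

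Igf1, the circulating mediator of GH, had 2.00 and 2.63 after 1 injection and 2.40 and 3.03 after 2, and the difference of 0.40 ± 0.63 was not called (adjusted p = 0.793). The groups overlapped, the second array being the higher in both, and another Igf1 probe gave -0.21. Of 15 genes of the IGF axis 0 were called by limma, with 0 at an unadjusted p below 0.05, and the list median was 0. Igfals, the acid-labile subunit that carries Igf1, had 1.76 and 1.39 against 2.36 and 1.90 (0.55 ± 0.34, adjusted p = 0.408). Fitting the 4 arrays alone called 3 members of the axis higher and 3 lower.

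Read by their brightest probes, the female-specific regulators Cux2 and Onecut1 and the male-specific repressor Bcl6 were strongly changed after 1 injection. They differed little between 1 and 2 injections. Cux2, a repressor of male genes, had 3.83 and 3.66 against 4.10 and 3.63 (0.12 ± 0.18, adjusted p = 0.779). A second Cux2 probe gave 0.09 after 1 injection and 0.21 after 2, so its strong induction rests on the brighter probe. Onecut1, a factor that activates female genes, had 3.30 and 3.39 against 3.70 and 3.59 (0.30 ± 0.40, adjusted p = 0.75). Bcl6, which competes with Stat5, had -1.89 and -1.65 against -1.51 and -1.31 (0.36 ± 0.35, adjusted p = 0.628). A p that misses the threshold does not show that the 3 were equal after both, and the signs of Cux2 and Onecut1 turned with median centring, to -0.15 and -0.03.

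Immediate early genes, which respond to many stimuli within an hour, were above the controls for 4 of 31 tested after 1 injection and for 18 after 2, where 8.16% and 18.1% of all genes were. The difference was called higher for 5 and lower for 1, against 6.53% and 5% of all genes, with a median of 0.26. With 1 array left out the count of higher genes was 3 to 5, and the fit of the 4 arrays called 19.

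Atf3, a stress-induced repressor, had 0.85 and 0.53 after 1 injection and 3.55 and 3.21 after 2 (2.69 ± 0.27, adjusted p = 0.00131). Klf6, a zinc finger factor, had -0.04 and 0.23 against 2.28 and 2.50 (2.29 ± 0.25, adjusted p = 0.0019). Btg2, which restrains proliferation, had 0.53 and -0.38 against 2.52 and 1.47 (1.92 ± 0.30, adjusted p = 0.00848). In all 3 the lowest array of 2 injections was above the highest array of 1. Jund, an AP-1 subunit, was higher by 1.02 ± 0.19 (adjusted p = 0.0164), but another of its probes gave 0.14, and the matricellular protein Ccn1 was higher by 0.81 ± 0.09. Btg2 lost its call without the second array of 1 injection or the first of 2, and Jund without either array of 1 or the first of 2.

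Fos, Egr1 and Junb did not follow. Fos, the partner of Jun in AP-1, had 0.09 and -0.07 against 0.48 and 0.06, with 1 of the 2 arrays of 1 injection well above background (0.26 ± 0.14, adjusted p = 0.335). With processed signals its difference was 1.13, still not called. Egr1, a zinc finger factor of growth signals, had 2.41 and 1.42 against 1.94 and 0.82, with overlapping groups (-0.54 ± 0.52, adjusted p = 0.633). Junb had 0.08 and 0.60 against 0.84 and 0.88 (0.52 ± 0.15, adjusted p = 0.0732). Junb was called without the second array of 1 injection, at 0.79.

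Myc, a driver of growth and ribosome production, went the other way. It had 2.93 and 3.09 after 1 injection and 2.03 and 1.95 after 2, so it stayed above the controls but 2.02-fold lower than after 1 (-1.02 ± 0.11, adjusted p = 0.00165). The groups did not overlap, and the call was kept with each array left out.

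Ribosome biogenesis and polyamine genes were higher after 2 injections for 19 of 27 tested and lower for 0, with a median of 0.66 (0.32 with median centring). Over the controls 11 were higher after 1 injection and 24 after 2. The count was 7 and 12 without the first and second array of 1 injection, and 8 and 14 without those of 2. Sat1, which acetylates polyamines for their breakdown, had 0.29 and 0.24 against 1.83 and 1.64 (1.47 ± 0.09, adjusted p = 0.000181). Odc1, which makes the first polyamine, had 0.38 and 0.03 against 1.09 and 0.65 (0.66 ± 0.16, adjusted p = 0.0416). The list thus holds genes of both synthesis and breakdown of polyamines.

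Among nucleolar proteins, Ddx21, an RNA helicase of rRNA synthesis, had 0.53 and 0.38 after 1 injection and 1.79 and 1.57 after 2 (1.23 ± 0.12, adjusted p = 0.00125), and other probes gave 0.74 and 0.51. Gar1, a component of the complexes that modify rRNA, had 0.83 and 0.68 against 1.91 and 1.58 (0.99 ± 0.07, adjusted p = 0.000342). Wdr12, needed for large-subunit processing, had 0.12 and 0.18 against 1.23 and 0.95 (0.94 ± 0.13, adjusted p = 0.00434). In each of the 3 genes both arrays of 2 injections were above both arrays of 1, and Wdr12 lost its call without the first array of 1. The box proteins Nop58, Nop56 and Fbl, which guide rRNA methylation, were higher by 0.91, 0.86 and 0.70. Of 24 structural proteins of the ribosome 0 were called by limma (1 lower at an unadjusted p below 0.05, 2 lower in the fit of the 4 arrays), with a median of -0.05 and values from -0.21 to 0.08. Of the promoters of the called biogenesis genes, 77.8% (14 of 18 matched) held GGGCGG on either strand, against 53.7% of the promoters of all genes tested and 60.8% of those of higher genes. TGACG on either strand was held by 44.4% of them, against 26.2% and 38.9%.

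Some targets and feedback regulators of BMP and TGF-beta were higher after 2 injections than after 1. Of 18 tested, 8 were lower than controls after 1 injection and 3 after 2. The difference was higher for 8 and lower for 0, with a median of 0.79 (0.52 with median centring). Without the first array of 1 injection 1 member was called higher, and without any other array 5 were.

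Id1, Id2, Id3 and Id4 block the DNA binding of helix-loop-helix factors and are direct BMP targets. Id1 had -1.51 and -1.24 after 1 injection and -0.05 and 0.12 after 2 (1.41 ± 0.24, adjusted p = 0.0111). Id2 had -0.72 and -0.50 against 0.38 and 0.70 (1.15 ± 0.15, adjusted p = 0.00433). Id3 had 0.38 and 0.76 against 1.40 and 1.56, a difference of 0.91, and Id4 was higher by 0.95. All 4 genes had higher values on each array of 2 injections than on either array of 1, and Id1 and Id4 were no longer called against the controls. Id1 lost its call without the first array of 1 injection or either array of 2, and Id2 without the first array of 1. Smad7, the inhibitory Smad, had -0.88 and -1.20 against 0.06 and -0.36 (0.89 ± 0.12).

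Hamp, the BMP-controlled iron hormone hepcidin, had -1.80 and 0.52 after 1 injection and 0.03 and 2.51 after 2. Each group's arrays differed from each other by more than the pulses did, and the groups overlapped. Compared within a dye orientation the difference was of 1 sign, and the fit with a dye term gave 1.91 ± 0.37 (adjusted p = 0.017). Without the dye term, and without the first or second array of 1 injection or the second of 2, the call was lost.

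Acute phase proteins, secreted by hepatocytes in inflammation, were higher after 2 injections for 6 of 22 and lower for 0, with a median of 0.40 (0.10 with median centring). The count was 1 to 3 with 1 array left out. Orm1, orosomucoid, had -0.52 and 0.22 against 0.62 and 1.54, with no overlap (1.22 ± 0.13, adjusted p = 0.0017). Serpina3n, a protease inhibitor, had -0.52 and 1.11 against 0.64 and 2.37, with overlap (1.21 ± 0.20, adjusted p = 0.00941). Fga and Fgb, chains of fibrinogen, were higher by 0.74 and 0.72, and Fgg, the third chain, was not called (0.70 ± 0.20, adjusted p = 0.0774), with no value on the second array of 2 injections. The calls of Orm1, Serpina3n and Fga were lost without the dye term. The 2 arrays of a pool differ in dye orientation, and the labels do not name the control pool that each held.

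Genes of the amino acid and endoplasmic reticulum stress responses were higher for 6 of 25 and lower for 0, with a median of 0.30 (0.13 with median centring). The count was 2 to 5 with 1 array left out, and 19 in the fit of the 4 arrays. Trib3, an inhibitor of Akt, had 0.10 and 0.56 after 1 injection and 2.17 and 2.48 after 2 (1.99 ± 0.37, adjusted p = 0.0146). Asns, asparagine synthetase, had 0.51 and 0.69 against 1.67 and 1.57 (1.01 ± 0.13, adjusted p = 0.00383). Atf4, the regulator of both, had 0.87 and 0.38 against 1.48 and 0.99 (0.62 ± 0.07). In all 3 genes the groups did not overlap. Trib3 lost its call with any 1 array left out. Hspa5, the main chaperone of the endoplasmic reticulum, had 0.68 and 0.78 against 1.43 and 1.61 and missed the threshold (0.78 ± 0.24, adjusted p = 0.0852).

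Loss of induction, the pattern of 101 genes, was seen in genes of proliferation and in a liver factor. Foxa2, a factor that opens liver chromatin, had 1.09 and 1.07 after 1 injection and 0.02 and 0.03 after 2, a return to the level of the controls (-1.05 ± 0.14, adjusted p = 0.00421), a call lost without the first array of 1 injection. Mki67, the proliferation antigen, had 0.99 and 0.95 against 0.13 and -0.04 (-0.92 ± 0.18, adjusted p = 0.0173). Cdk1, Top2a and Ube2c, which act in mitosis, were lower by -0.66, -0.54 and -0.51. Cdkn1a, the cell cycle inhibitor p21, had 0.11 and -0.42 against 1.90 and 1.48 (1.84 ± 0.46, adjusted p = 0.0448). Of 31 cell cycle genes 1 was higher and 4 lower, where 6.53% and 5% of all genes were, with a median of -0.16. The calls of Mki67, Cdk1, Top2a and Cdkn1a were lost with any 1 array left out, and 8 cell cycle genes were lower with processed signals, where Mki67 had -1.60.

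Other liver transcription factors held a few calls in each direction. Of 38 tested, 4 were higher, among them Cebpg, Cebpd and Cebpb, and 3 lower, Nr1i2, Nr1i3 and Foxa2. The list median was 0.03 (-0.16 with median centring). Among all genes, 6.53% were higher and 5% lower. Cebpd and Cebpb, which drive acute phase genes, were higher by 0.69 and 0.65. Nr1i3, the xenobiotic receptor CAR, had -1.04 and -0.50 after 1 injection and -2.04 and -1.53 after 2 (-1.01 ± 0.15, adjusted p = 0.00611). Its arrays of 2 injections were below both of 1, and of the fits with 1 array left out it was called only without the second array of 2. With 1 array left out 0 or 1 member was called higher. Of 15 clock genes 0 were called by limma (1 lower at an unadjusted p below 0.05), and the 4-array fit called 6 higher and 2 lower.

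Among the largest falls outside the muscle genes, Dipk2a, a secreted kinase-like protein, had 1.14 and 1.27 after 1 injection and -0.35 and -0.32 after 2 (-1.54 ± 0.16, adjusted p = 0.00156). Cldn1, a tight junction protein, had 0.07 and -0.41 against -1.45 and -1.88 (-1.49 ± 0.12, adjusted p = 0.000538). Adamts7, a metalloprotease, had -1.21 and -1.04 against -2.63 and -2.39 (-1.38 ± 0.10, adjusted p = 0.000342). These 3 represent a loss of induction, a late fall and a deeper repression, and none of their groups overlapped. Rab40b, Smpd3, Adh7, Arhgef19, Cc2d2a and Tmem218 were lower by -1.46, -1.38, -1.38, -1.37, -1.29 and -1.25. Smpd3 was at the threshold (adjusted p = 0.0492) and lost its call with any 1 array left out and with processed signals. Adh7, Rab40b and Arhgef19 also lost theirs in at least 1 such case.

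Metabolic lists held calls in both directions, to be read beside the shares of all genes, 6.53% higher and 5% lower. Of 23 fatty acid and triglyceride synthesis genes 0 were higher and 2 lower, Gpam and Agpat2, which start and continue glycerolipid synthesis (-0.88 and -0.55), and the median was -0.53, while the 4-array fit called 17 lower. Fasn, fatty acid synthase, had 2.24 and -1.17 after 1 injection and 0.55 and -2.78 after 2, with arrays of 1 pool further apart than the groups (-1.65 ± 1.63, adjusted p = 0.643). Of 18 bile acid genes 0 were higher and 3 lower: the bile acid importer Slc10a1 (-0.80), the side-chain hydroxylase Cyp27a1 (-0.55) and the exporter Abcc3 (-0.53), with a median of -0.43. All 3 calls were lost with any 1 array left out. Of 22 genes of amino acid catabolism and the urea cycle, Hal, histidine ammonia-lyase, was lower (-0.93 ± 0.13), with a median of -0.30 and 18 lower in the 4-array fit. Agpat2 lost its call with any 1 array left out, Gpam without the first array of either group, and Hal without the first array of 1 injection.

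Fatty acid oxidation and ketogenesis had 4 higher and 2 lower of 27. Cyp4a8, a fatty acid hydroxylase, had -1.52 and -0.98 after 1 injection and -0.03 and 0.53 after 2 (1.49 ± 0.16, adjusted p = 0.00196). Cyp4a3 of the same family had -0.61 and 0.22 against 0.52 and 1.37 (1.14 ± 0.15, adjusted p = 0.00395). Cpt2, a mitochondrial carnitine transferase, was higher by 1.02 ± 0.18. In the Cyp4a family relatives may share a probe, and both calls needed the dye term. In cholesterol synthesis 3 of 27 genes were higher and 1 lower. Among them Sqle, squalene epoxidase, had -0.51 and -0.51 against 0.54 and 0.34 (0.95 ± 0.22, adjusted p = 0.0329), Hmgcs1, which makes HMG-CoA, was higher by 0.95, and Sc5d, a sterol desaturase, was lower by -0.33. Of 20 serpins, 1 was higher and Serpina6, Serpina5 and Serpind1 were lower. Of 17 drug-metabolising genes, Cyp3a9, a female-biased P450, and Hmox1, heme oxygenase, were higher (1.19 and 0.51) and Nqo1, a quinone reductase, was lower (-0.87). The calls of Cpt2, Sqle, Hmgcs1, Sc5d, Serpina5 and Cyp3a9 were lost with any 1 array left out, that of Serpind1 with 3 of the 4, and that of Hmox1 without the first array of either group.

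The remaining lists held 0 to 3 calls each. Gluconeogenesis and glycogen genes had 1 higher and 2 lower of 18, with Gys2, liver glycogen synthase, at 0.68 and the glucose-6-phosphate transporter Slc37a4 at -0.79. Thyroid hormone responsive genes had 0 higher and 2 lower of 11, with Dio1, which activates thyroid hormone, at -0.68. Glucocorticoid responsive and insulin-linked genes had 1 higher each of 17 and 16, Cdkn1a and Trib3. Oxidative phosphorylation had 1 lower of 20 and the heat shock list 0 of 13 by limma, with 2 higher at an unadjusted p below 0.05 and 6 higher in the 4-array fit. Of 17 hepatocyte secretory genes, Apob, the structural protein of lipoproteins, was higher (0.49 ± 0.12, adjusted p = 0.0376), and its 4 other probes were not called. Of the genes named here, Dio1, Gys2, Slc37a4, Trib3 and Cdkn1a lost their calls with any 1 array left out, and Apob with any but the first array of 1 injection.

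**Figure D4:**
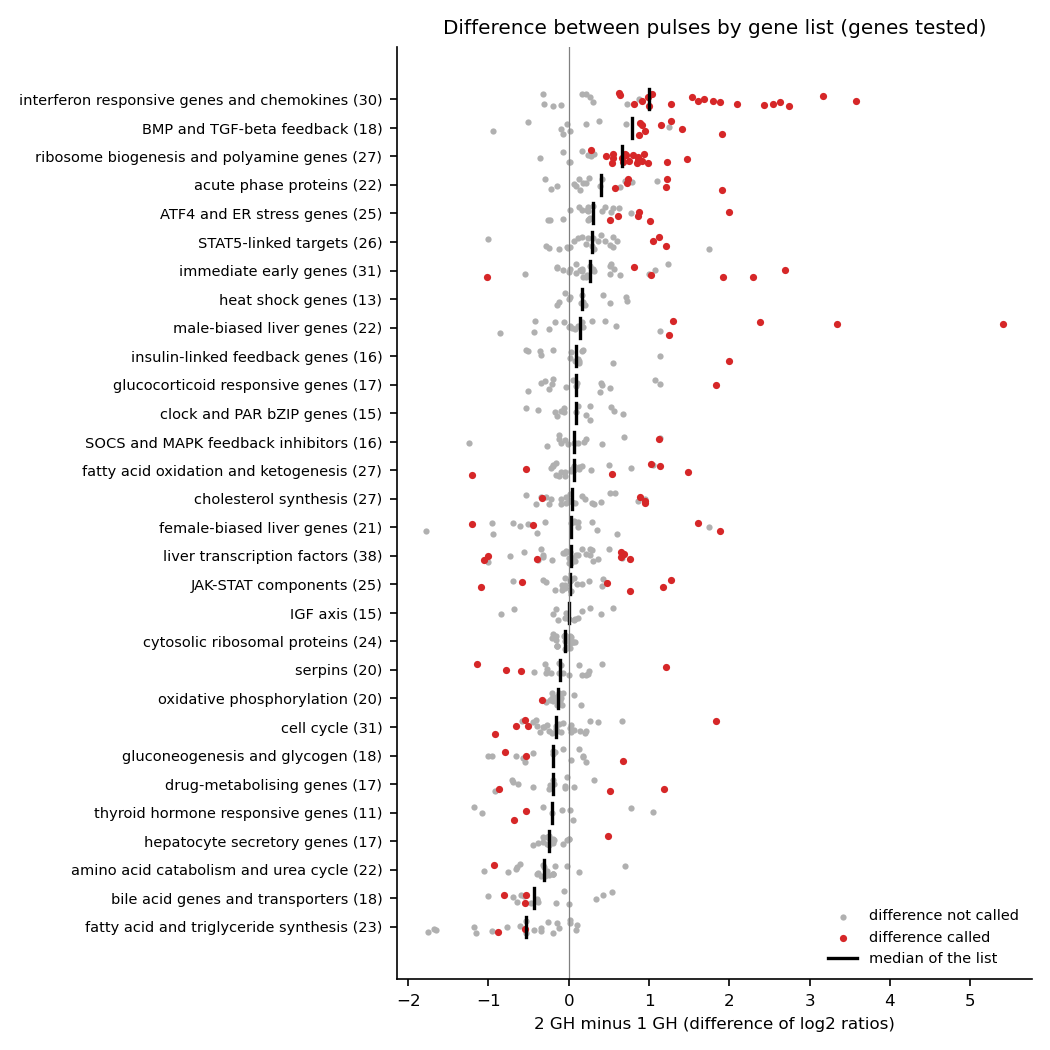
Difference of log2 ratios, 2 GH injections minus 1 (x axis), for the tested members of 30 gene lists (rows, with the number of genes). Red points were called, grey points were not, and the black bar is the list median. Interferon, BMP and ribosome biogenesis lists lie furthest to the right, with medians of 1.00, 0.79 and 0.66, and fatty acid synthesis furthest to the left, with -0.53.

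Skeletal muscle genes were among the largest falls. Myl11, Myh7 and Ckm were 3 of the 12 largest, and a list of muscle genes was then drawn up after these values had been seen. Of its 16 genes tested 13 were above the controls after 1 injection, and 11 were lower after 2 than after 1. The median ratio was 0.71 after 1 injection and -0.03 after 2. Myl11, a fast myosin light chain, had 1.59 and 1.70 after 1 injection and -0.05 and -0.09 after 2 (-1.71 ± 0.08, adjusted p = 5.89e-05). Ckm, muscle creatine kinase, had 1.33 and 1.23 against 0.07 and -0.01 (-1.25 ± 0.09, adjusted p = 0.000241). Tnnc2, a troponin of fast muscle, had 1.03 and 0.85 against -0.15 and -0.11 (-1.07 ± 0.12). The treated RNA of Ckm and Tnnc2 was well above background on 1 of the 2 arrays of 2 injections, so the size of both falls is uncertain.

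Myh7, slow myosin heavy chain, had 1.42 and 1.33 after 1 injection (difference -1.41 ± 0.09, adjusted p = 0.000181 by limma). Its treated RNA was not well above background on either array of 2 injections. By the level of the treated RNA alone, not divided by the controls, Myh7 was at least 2.87-fold higher after 1. That bound divides the mean level after 1 by that after 2, the latter set no lower than the dimmest signal well above background. It is another measure than the difference of log2 ratios, which was 2.66-fold, and sets no floor for it. With the scanner's processed signals, which carry no offset, the differences of Myh7, Ckm and Tnnc2 were -4.06, -3.14 and -3.0, and the list median moved from -0.93 to -2.69. The size of these falls thus depends on how dim signals are treated, and the direction did not. Actn3 had -4.10 on the first array of 2 injections and 0.04 on the second and was not called. With 1 array left out 7 to 9 genes of the list were called lower.

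With the loess step, markers of liver cells moved less than the muscle genes, whose median difference was -0.93. The median differences were -0.29 for hepatocyte, -0.55 for stellate cell, -0.14 for endothelial, 0.28 for bile duct and -0.47 for erythroid markers. With median centring the stellate cell markers moved more (-0.94) than the muscle genes (-0.86). Hepatocyte (-0.75), erythroid (-0.63), endothelial (-0.37) and bile duct markers (0) then moved less. Of 10 hepatocyte markers 0 were called by limma (0 at an unadjusted p below 0.05, 1 higher and 8 lower in the fit of the 4 arrays), with ratios from -0.50 to 0.89 after 1 injection and from -0.40 to 0.46 after 2. All 10, albumin and the liver factor Hnf4a included, were well above background on all 4 arrays. Of 11 stellate cell markers, Timp1, an inhibitor of metalloproteases, was higher (0.52) and Lrat, which stores retinol, and Dcn, a matrix proteoglycan, were lower (-0.75 and -0.91), with ratios from -0.07 to 1.16 after 1 and from -0.53 to 0.71 after 2. Of 10 endothelial markers Kdr was lower (-0.33), and of 10 bile duct markers Krt18, a keratin also made by hepatocytes, was higher (1.03). Of 4 erythroid markers tested, Alas2, an enzyme of heme synthesis, was lower (-0.56), and of 7 markers of pancreas and fat 0 were called by limma, with 0 at an unadjusted p below 0.05. The calls of Kdr, Lrat and Dcn were lost with any 1 array left out, and those of Timp1 and Alas2 with 3 of the 4. A second probe of Lrat gave -0.13 (adjusted p = 0.414). The part of muscle RNA or of other cells in the differences described above was not tested.

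**Figure D5:**
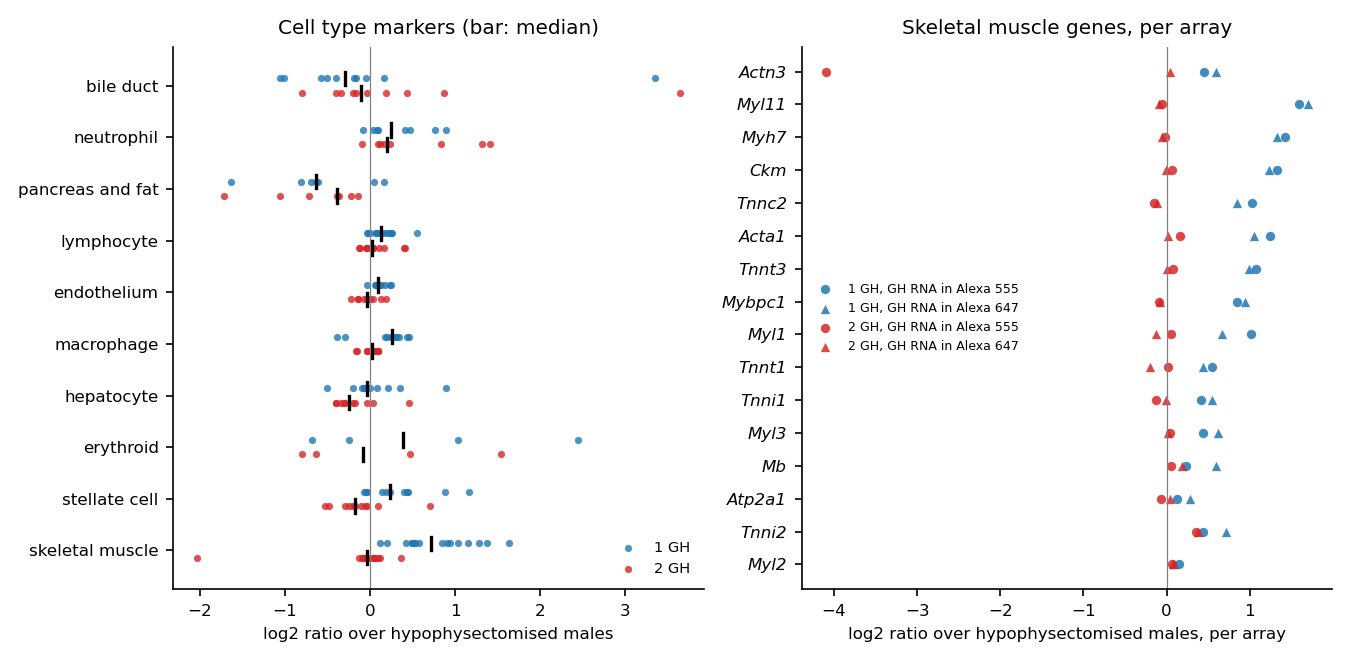
Left, fitted log2 ratio over hypophysectomised males (x axis) of cell type markers after 1 injection (blue) and 2 (red), with 1 point per gene and a bar at the median. Right, the 16 skeletal muscle genes on each of the 4 arrays, with circles for GH RNA in Alexa 555 and triangles for Alexa 647. Muscle genes lie at a median of 0.71 after 1 injection and -0.03 after 2.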

How the data were processed

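The arrays were Agilent rat oligonucleotide arrays read in 2 colours (red for Alexa 647, green for Alexa 555). Per the file headers the scanner intensities were extracted with Agilent Feature Extraction 9.1.3.1. The deposited intensity columns used were the mean signal and median background of each dye, with the processed signals and the scanner's log10 ratio as deposited serving for checks. The authors' deposited value table holds log2 ratios, found by comparison to be those of the processed signals, channel 2 over channel 1 (99th percentile of the difference 0.005). The members, gene lists and motifs were chosen with earlier results of these data known.

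Background was corrected with normexp (offset 50), ratios were normalized by loess within arrays with control spots and outliers at weight 0, turned to GH-treated over hypophysectomised, and spots of a probe were averaged. Control spots numbered 1639 of 45018. With limma 3.58.1 in R 4.3.3, 1 coefficient for each of 6 comparisons and 1 for the dye were fitted to 12 arrays (5 residual degrees of freedom, prior 3.08). Probes were tested where 1 of the 3 RNAs was well above background on the arrays that hold it. P-values were adjusted by Benjamini-Hochberg over 28589 probes, and those from limma cover only the spread between arrays. Of 41012 probes, 5571 were named by a current symbol, 3726 through a synonym and 10735 through an accession in RefSeq tables. The text names the 12 largest rises and falls, the 6 largest reversals each way, up to 4 called members per list, and 15 GH signalling genes whatever their values. Further list members, Gbp5 beside its family and the muscle list were named after their values were seen. The procedure was tested on simulated data. Alternatives were median centring, an offset of 16, processed signals, the value table, the 4 GH arrays alone, no dye term, the replicate number as a block, the slide as a random block, 2 other filters, and each array left out. A few named genes are not reported here.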

Additional observations from a re-analysis of the deposited data

Results flagged for a closer look

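In 12 genes the response differed between 1 and 2 injections in direction, with the difference itself tested by limma. The differences, 2 injections minus 1, were 5.41 for Cdh17, 3.34 for Stac3, 3.03 for Gstm3, 2.03 for Neurl3, 1.30 for Hao2 and 1.27 for Tgif1. They were -0.72 for Ifgga2l1, -0.77 for Ttll9, -0.85 for Ctla2a, -0.88 for Tmco3, -1.14 for Serpina6 and -1.20 for Cd36. These genes were selected among those called in opposite directions for the size of the difference, and each pulse rests on 1 pool.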

How the results depend on the processing

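Median centring gave 0 probes for the difference, 0 for 1 injection and 74 for 2, and 0 in each pattern and lead list. The 4 GH arrays alone gave 10725, 12366 and 14864 probes, and 923 late rises, 849 late falls, 1718 stronger, 252 weaker, 486 lost inductions, 236 lost repressions, 440 reversals and 98 genes called in neither, with 19 immediate early, 15 acute phase and 19 ATF4 genes. Both together, chosen after seeing the data, gave 1 probe. Without the dye term 1143 probes differed. Processed signals gave 13 genes called in neither.

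With 1 array left out, counts ran from 461 to 955 probes for the difference, 514 to 2944 for 1 injection and 4153 to 8062 for 2. Late rises ran from 102 to 260, late falls from 48 to 72, stronger from 20 to 153, weaker from 2 to 5, lost inductions from 17 to 30, lost repressions from 1 to 15, reversals from 7 to 17 and neither from 0 to 2. The lists ran from 16 to 19 for interferon, 7 to 14 for ribosome biogenesis, 1 to 5 for BMP, 1 to 3 for acute phase, 2 to 5 for ATF4, 3 to 5 for immediate early and 7 to 9 for muscle genes.

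Signs of several uncalled GH signalling genes turned, as did the list medians named above for sex-biased and STAT5-linked genes. With median centring those of JAK-STAT (-0.17), liver factor (-0.16), clock (-0.01), cholesterol (-0.26) and fatty acid oxidation genes (-0.28) also turned. So did those of heat shock (-0.23), insulin-linked (-0.18) and glucocorticoid responsive genes (-0.09). Other uncalled genes were not recomputed. Median centring, also with the 4 arrays alone, gave Igf1 -0.05, Socs1 0.01, Onecut1 -0.03, Cux2 -0.15, Stat5b -0.17 and Ghr -0.34. Processed signals and the value table gave Cish 0.20 and 0.19, Socs1 0.11 and 0.11, and Socs3 0.17 and 0.16. With 1 array left out the values ran from -0.30 to 0.06 for Cish, -0.09 to 0.01 for Socs1, -0.08 to 0.05 for Socs3, -0.04 to 0.29 for Cux2, -1.10 to 0.03 for Egr1, -0.09 to 0.15 for Stat5b and -0.18 to 0.33 for Ghr. Other probes gave Igf1 -0.21 and Ghr -0.35 and -0.36. The cause was not tested.

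The other settings kept the difference within 1.5 times: 2662 probes with the slide as a random block, 2438 without the filter and 1944 with the offset of 16. The replicate number as a block with the dye gave 2071 probes. Numbers 1 and 2 name only arrays here (correlation of deviations 0.88, and 0.69 after the dye coefficient), so this fit pairs nothing by design. Of the 103 called named genes, 0 turned direction under any setting, and of 35 other tested probes of these genes 24 were called with the same sign and 0 with the opposite. Second probes of Top2a, Ttll9 and Gys2 gave -0.26, -0.25 and 0.43, not called. Depth enters through dim signals: muscle genes changed most with the background treatment.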
